A study of Rattus norvegicus with 32 samples.

Results

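The genes described here encode 10 neuropeptide precursors of the rat nucleus accumbens: Penk, Tac1, Pdyn, Cartpt, Npy, Sst, Cck, Crh, Trh and Avp. They were chosen by name, as the probes that the platform annotation assigns to these symbols, and each symbol had 1 probe among the 22523 of the array. The arrays were Illumina rat beadchips hybridised with total RNA of dissected accumbens tissue, so every value is a mixture of all cells in the sample. The group of interest was given methamphetamine (METH) once, at 20 mg/kg, and was killed 1 h later (5 arrays); the drug is a stimulant that raises extracellular dopamine. Its controls received saline and were killed at the same time (4 arrays). All animals were male Sprague-Dawley rats weighing about 375 g, with no genetic change named, and their age and the route of injection are not given in the labels. The 5 METH and 4 saline arrays lay on 2 slides, with 2 of each on slide 1 and 3 METH and 2 saline arrays on slide 2. The labels speak of 5 rats per group but do not tie each array to its own rat, so the p-values cover array-to-array spread, which may be technical. The other 23 of the 32 arrays, at other times, were not used, because their rows do not match the probe IDs: their values had rank correlations of -0.00947 to 0.000616 with those at 1 h.

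Neuropeptides are cut from larger precursor proteins, packed into dense vesicles and released by strongly active neurons to act on G protein-coupled receptors. The projection neurons of the accumbens use them as co-transmitters of GABA. Cells of the striatopallidal path, which carry the dopamine receptor Drd2, make enkephalin from Penk, and cells of the striatonigral path, which carry Drd1, make substance P from Tac1 and dynorphin from Pdyn. Cartpt encodes the CART peptides, named after their regulation by cocaine and amphetamine. Npy and Sst are shared by a sparse class of striatal interneurons. Cck is abundant in cortical neurons, while Crh, Trh and Avp are best known as hypothalamic hormones that are also made in other parts of the forebrain.

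Promoter sequences are shown for 4 members, 3 of which mark projection neurons, to give the DNA that lies at their start sites. The RefSeq table (build GRCr8) held a window for 7 of the 10, namely Tac1, Pdyn, Npy, Sst, Cartpt, Trh and Avp, running from 250 bases before to 50 after the annotated start. Capitals mark matches, sought on both strands, to the cAMP response element TGACGTCA, the AP-1 site TGACTCA, the TATA box TATAAA or the E-box CACGTG, and no match overlapped another. All are written 5′ to 3′ on the gene's own strand.
Cartpt (chr2:32991186-32991485, minus strand): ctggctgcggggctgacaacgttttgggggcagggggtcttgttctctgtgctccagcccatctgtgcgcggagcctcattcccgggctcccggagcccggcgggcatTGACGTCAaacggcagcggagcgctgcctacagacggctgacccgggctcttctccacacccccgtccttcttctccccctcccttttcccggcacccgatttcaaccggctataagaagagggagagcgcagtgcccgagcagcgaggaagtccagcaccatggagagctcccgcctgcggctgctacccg
Sst (chr11:90461296-90461595, plus strand): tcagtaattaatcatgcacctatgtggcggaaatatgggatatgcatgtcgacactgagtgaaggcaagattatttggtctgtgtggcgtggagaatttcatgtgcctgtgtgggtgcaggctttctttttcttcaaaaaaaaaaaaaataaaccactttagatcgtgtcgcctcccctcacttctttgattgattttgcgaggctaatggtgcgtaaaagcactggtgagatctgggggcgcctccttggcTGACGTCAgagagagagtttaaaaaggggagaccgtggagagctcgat
Pdyn (chr3:137366454-137366753, minus strand): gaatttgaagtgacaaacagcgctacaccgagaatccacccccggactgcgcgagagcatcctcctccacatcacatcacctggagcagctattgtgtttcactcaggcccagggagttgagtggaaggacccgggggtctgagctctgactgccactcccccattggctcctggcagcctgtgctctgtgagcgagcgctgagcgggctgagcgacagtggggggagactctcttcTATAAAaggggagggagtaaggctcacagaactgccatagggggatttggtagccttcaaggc
Tac1 (chr4:36645333-36645632, plus strand): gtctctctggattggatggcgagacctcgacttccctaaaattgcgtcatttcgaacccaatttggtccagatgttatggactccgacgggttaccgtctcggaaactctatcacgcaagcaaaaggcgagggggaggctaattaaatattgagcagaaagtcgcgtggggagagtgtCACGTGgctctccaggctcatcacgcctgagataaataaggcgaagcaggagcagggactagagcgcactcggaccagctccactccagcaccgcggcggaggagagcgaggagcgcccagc
Cartpt and Sst each held a cAMP response element, the palindrome that binds CREB, starting at bases 109 and 253 of their windows. This motif occurred in 1.83% of the 33469 windows in the table. Pdyn held a TATA box at base 238, as did 14.2% of windows, and Tac1 an E-box at base 179, as did 6.42%. Avp also held an E-box, at base 86, while AP-1 sites, present in 4.63% of windows, matched in none of the 7. The letters TGACGTCA and CACGTG are their own reverse complements, and a match describes the sequence only.

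The 9 arrays had mean intensities of 164.3 to 231.4 and 41.5% to 47.3% of probes above background, which here means a detection p under 0.05. The animals' response to the drug was visible in genes switched on by neuronal activity. Fos had deposited intensities of 275.3 to 1172.1 on METH arrays, against 13.7 to 34.6 on saline arrays, and 11 of 15 measured immediate early genes rose and none fell, Fos by 3.84 and Arc by 2.94 on the log2 scale, and Egr1, Egr4, Egr2 and Dusp1 by 1.77 to 2.76. Over all 7203 genes, 0.528% rose and 0.0278% fell. The tissue label was checked against genes of striatal projection neurons: Drd1, Drd2, Adora2a, Rgs9 and Ppp1r1b were above background on all 9 arrays. Genes of cortical glutamatergic neurons were above background as well, on 3 to 9 of 9 probes per METH array and 3 to 8 per saline array. None of 10 tested glial and vascular markers and none of 7 septal, pallidal, hypothalamic and thalamic markers passed, with median log2 differences of -0.12 and -0.32. The smallest p in these lists belonged to Mobp (0.40) and Itgam (-0.29), and to Slc17a6 (0.64) and Hap1 (-0.56).

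Of the 10 neuropeptide genes, Crh alone passed the test 1 h after METH in the reported fit, and it rose. Differences were tested with limma on normalized log2 intensities, with Benjamini-Hochberg adjustment over all 9987 probes above background on at least 4 arrays and a threshold of 0.05. All 10 members met that filter, of which 9 on 8 or 9 arrays and Avp on 4. Among all probes tested 0.491% rose and 0.0300% fell. The members' log2 differences were split evenly, 5 above and 5 below 0, with a median of 0.045, where the median over all genes was -0.021. Crh was also the 1 member whose METH and saline arrays did not overlap, as was true of 4.26% of all probes tested.

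**Figure D1:**
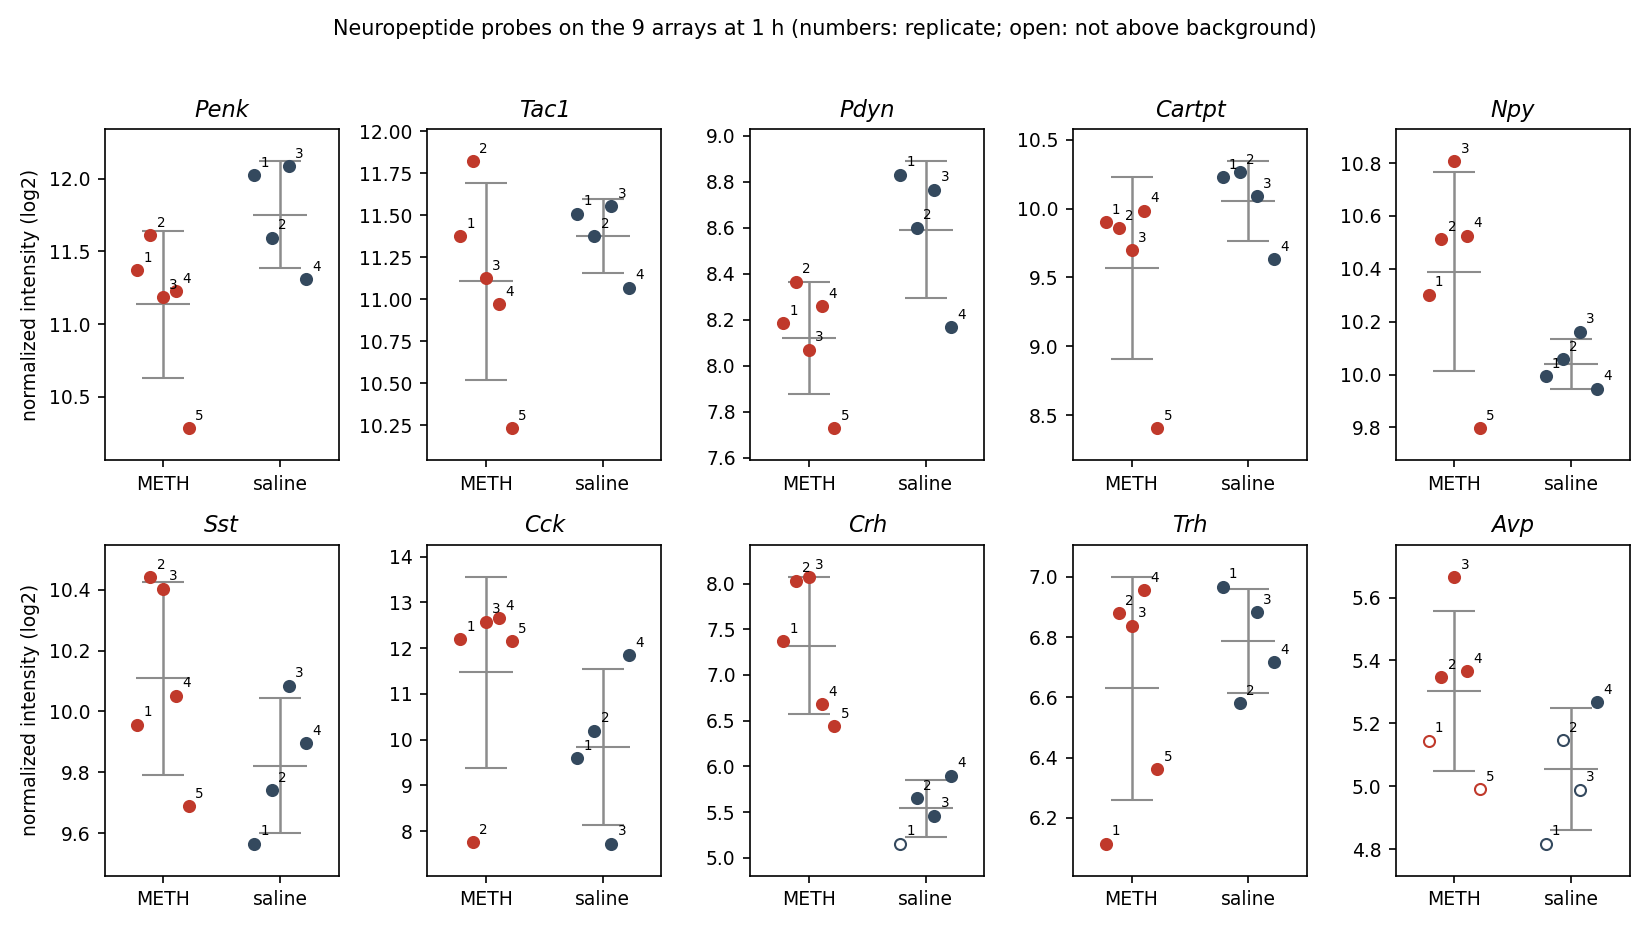
Normalized log2 intensity of each of the 10 neuropeptide probes on every array, with METH arrays in red on the left and saline arrays in blue on the right of each panel; numbers give the replicate, open circles were not above background, and grey bars show the mean and SD. Crh is the only panel in which all 5 METH arrays lie above all 4 saline arrays, and Cck spreads over several log2 units within both groups.

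Crh encodes corticotropin-releasing hormone, the peptide that starts the hormonal stress response. Its deposited intensity was 165.6, 303.7, 300.8, 83.2 and 69.3 on METH arrays 1 to 5, against 17.7, 29.9, 25.4 and 37.0 on saline arrays 1 to 4. Every METH array was thus brighter than every saline array, with arrays 2 and 3 the brightest and arrays 4 and 5 the dimmest of the treated group. On the normalized log2 scale Crh averaged 7.32 ± 0.75 in METH arrays and 5.54 ± 0.31 in saline arrays (SD, n = 5 and 4). The difference was 1.78 (95% interval 1.08 to 2.48, limma adjusted p = 0.028), which is 3.43-fold with an interval of 2.11 to 5.59. This scale carries an offset of 16 that shrinks changes of dim probes. The ratio of the mean deposited intensities, which are not scaled between arrays, was 6.71. In unscaled values the median log2 difference of all probes was 0.23. All 5 METH arrays measured Crh above background, but saline array 1 did not, so its level with saline is close to the limit of the array.

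Crh was higher with METH in all 19 alternatives that gave a value, but did not pass the threshold in 6 of them. With slide as a block it was 1.80 (limma adjusted p = 0.027), with 2.30 within slide 1 (0.0062) and 1.39 within slide 2 (0.424). It did not pass without METH array 1 or 3 or without saline array 1, 2 or 3, where the difference was 1.59 to 1.82 and the limma adjusted p 0.067 to 0.123. It passed without METH array 2, 4 or 5 or saline array 4. In unscaled intensities it was 2.54.

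**Figure D2:**
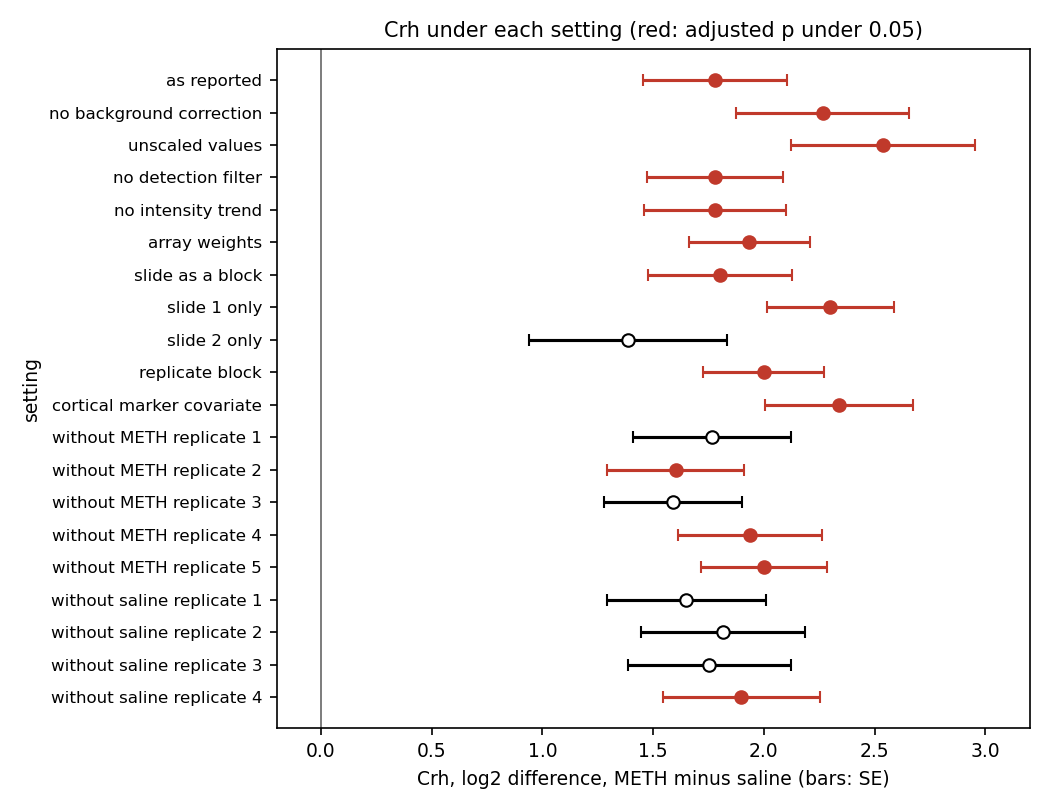
Log2 difference of Crh, METH minus saline, with its SE under the reported setting and each of the 19 alternatives that gave a value. All values lie above 1.3, and those in red passed an adjusted p of 0.05, which 6 of the alternatives did not.

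The 4 peptides of projection neurons were lower on average with METH on the normalized scale, but none passed. In unscaled values the differences were -0.38 for Penk, -0.23 for Pdyn and Cartpt and -0.03 for Tac1. The median of all probes there was 0.23. The mean deposited intensity of Tac1 was higher with METH (2588.3 against 2450.3). Penk, the enkephalin precursor, had intensities of 2693.4, 3839.1, 2769.8, 2327.3 and 1239.3 on METH arrays 1 to 5, against 3966.3, 2685.3, 4317.4 and 2123.9 on saline arrays 1 to 4. After normalization all 5 METH arrays lay below the saline mean, while the groups overlapped through saline arrays 2 and 4. Penk averaged 11.14 ± 0.50 in METH arrays and 11.75 ± 0.37 in saline arrays on the log2 scale (SD, n = 5 and 4), a difference of -0.62 (95% interval -1.15 to -0.08, limma adjusted p = 0.380), and -0.40 without METH array 5. In such bulk tissue, fewer cells of a type and less RNA per cell cannot be told apart.

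Pdyn, the dynorphin precursor, had normalized log2 values of 8.18, 8.37, 8.07, 8.26 and 7.73 on METH arrays 1 to 5, against 8.83, 8.60, 8.77 and 8.17 on saline arrays 1 to 4. Again every METH array was below the saline mean, and saline array 4 lay among the METH arrays. The difference was -0.47 (95% interval -0.83 to -0.11, limma adjusted p = 0.315). Cartpt had normalized log2 values of 9.90, 9.86, 9.70, 9.99 and 8.41 on METH arrays 1 to 5, against 10.23, 10.26, 10.09 and 9.63 on saline arrays 1 to 4. METH array 5 stood far below the others, and the difference of -0.48 (95% interval -1.10 to 0.13, limma adjusted p = 0.569) was -0.19 without it. Tac1, the substance P precursor, averaged 11.11 ± 0.58 in METH arrays and 11.38 ± 0.22 in saline arrays on the log2 scale (SD, n = 5 and 4). Its highest array and its lowest were both METH arrays, number 2 at 11.82 and number 5 at 10.23. The difference of -0.27 (95% interval -0.82 to 0.28, limma adjusted p = 0.727) was -0.05 without METH array 5, -0.45 without METH array 2 and 0.16 within slide 1.

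METH array 5 was the lowest array for Penk, Tac1, Pdyn and Cartpt, and on the normalized scale for Npy as well. It lay 1.06, 1.09, 0.49 and 1.45 log2 units below the mean of the other METH arrays in the first 4. Its difference from that mean was also below 0 for Crh (-1.10), Npy (-0.74), Sst (-0.52), Avp (-0.39) and Trh (-0.34). For Cck it was above 0 (0.85). METH array 5 also had the highest share of probes above background, 47.3% against 41.5% to 44.5% on the others. Markers of projection neurons were also low on that array: the median of the 9 shared markers was -0.72 on METH array 5 relative to the saline mean, against -0.60 to -0.15 on METH arrays 1 to 4 and -0.09 to 0.07 on the saline arrays. Summed intensities of those 9 markers were 8252 to 15341 on METH arrays and 11784 to 14986 on saline arrays. None of the 9 passed the test, the nearest being Gng7 at -0.85 (limma adjusted p = 0.090) and Rgs9 at -0.57 (0.229), and 1, Rarb, had a difference above 0 (0.09). Of the 2 measured striatopallidal markers Adora2a had -0.79 and Drd2 -0.45 (limma adjusted p = 0.124 and 0.262). On the normalized scale the METH and saline arrays did not overlap for either, as was true of 4.26% of all probes tested. For Drd2 the nearest arrays were METH array 2 at 7.73 and saline array 4 at 7.75. The deposited intensities of both genes overlapped between the groups. Of the 5 striatonigral markers none passed, with a list median of -0.36. Isl1 had -0.81 and Drd1 -0.51, while Sfxn1 and Chrm4 had 0.14 and 0.03, and summed intensities of the 5 were 1065 to 1737 on METH arrays and 1021 to 1338 on saline arrays. Whether the share of these neurons in the samples had a part in the peptide values was not tested.

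**Figure D3:**
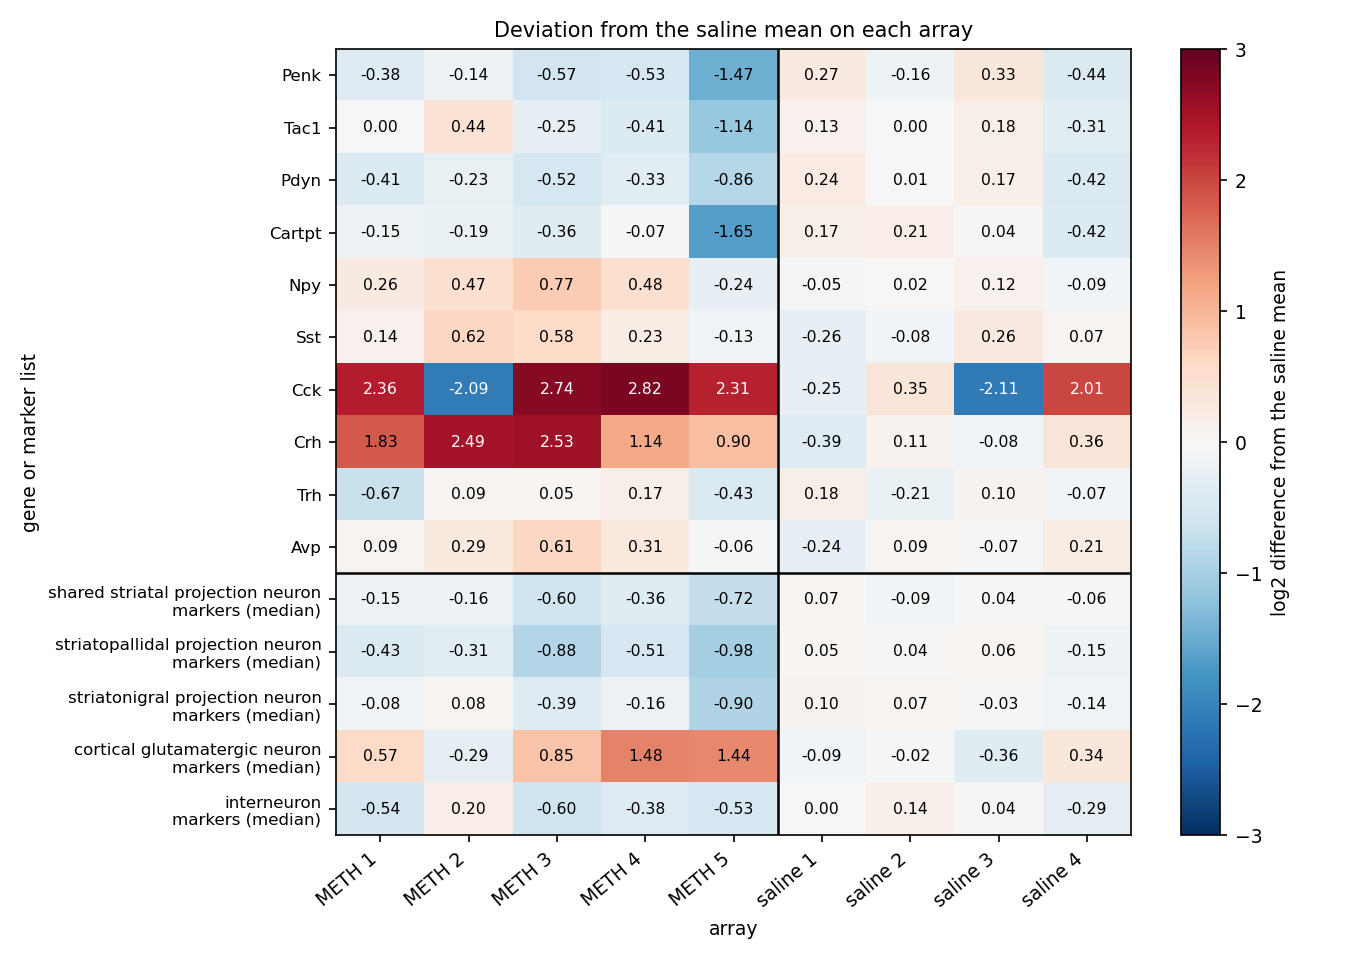
Each cell gives the log2 difference of a neuropeptide probe, or of the median of a marker list, from its saline mean on 1 array; METH arrays stand left of the vertical line and saline arrays right of it. The upper 4 rows share the low value on METH array 5, the Cck row follows the cortical marker row, and the Crh row is above 0 on all METH arrays (0.90 to 2.53).

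The projection neuron peptides also followed each other from array to array. Across the 9 arrays Penk and Pdyn correlated at r = 0.95 and rho = 0.92 (exact permutation, adjusted p = 0.0114 and 0.0461 over 45 pairs of members), and r was 0.935 without METH array 5 and saline array 3. After each group's mean was subtracted, r was 0.924. Pdyn and Cartpt correlated at r = 0.842 and rho = 0.883 (exact permutation, adjusted p = 0.0258 and 0.0461), with r = 0.808 without METH array 5 and saline array 1. Penk and Tac1 had r = 0.892 and rho = 0.895 (exact permutation, adjusted p = 0.0572 and 0.0461), and r fell to 0.692 without METH array 5 and saline array 3. No other pair passed by either measure. All these values come from the same arrays, whose RNA quality and dissection they share, and the slides hold too few arrays for a value within each.

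Npy and Sst, the peptides of the sparse interneurons, were higher on 4 of the 5 METH arrays than the saline mean. Npy had intensities of 1269.4, 1754.1, 2074.3, 1415.8 and 876.7 on METH arrays 1 to 5, against 974.8, 878.3, 1059.4 and 824.3 on saline arrays 1 to 4. METH arrays 1 to 4 were all brighter than the brightest saline array, and array 5 lay within the saline range in these deposited intensities. After normalization METH array 5, at 9.80, lay below all saline arrays (9.95 to 10.16). The log2 difference was 0.35 (95% interval -0.03 to 0.73, limma adjusted p = 0.495), and 0.50 without METH array 5 (0.090). With the replicate number as a block, a fit that also leaves out METH array 5, Npy passed at 0.50 (limma adjusted p = 0.041). Sst averaged 10.11 ± 0.32 in METH arrays and 9.82 ± 0.22 in saline arrays on the log2 scale (SD, n = 5 and 4), a difference of 0.29 (95% interval -0.08 to 0.65, limma adjusted p = 0.569). It was 0.55 within slide 1 and 0.06 within slide 2. The 2 genes correlated at r = 0.852 and rho = 0.80 (exact permutation, adjusted p = 0.0572 and 0.112), with r = 0.764 without METH arrays 3 and 5. Of 9 other interneuron markers none passed, and 8 had a log2 difference below 0, as did 3888 of all 7203 genes. The smallest p belonged to the acetylcholine vesicle transporter Slc18a3 at -0.98 and the serotonin receptor Htr3a at -0.48, while Pvalb, the parvalbumin gene, had 0.49. The list includes Gad1 and Gad2, which projection neurons also express.

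Cck, the cholecystokinin precursor, was the most variable member. Its intensity was 4782.5, 246.4, 7406.2, 6773.7 and 4037.2 on METH arrays 1 to 5, against 745.5, 966.9, 178.8 and 3126.4 on saline arrays 1 to 4. The brightest array exceeded the dimmest by 41.4-fold, and METH array 2 lay near saline array 3 at the bottom. Its SD within groups, 1.93 on the log2 scale, ranked 5th of the 9987 probes tested, where the median probe had 0.23. The difference of 1.63 (95% interval -0.50 to 3.76) did not pass (limma adjusted p = 0.576), with 2.56 when METH array 2 was left out (0.055) and 0.92 when saline array 3 was (0.903). Within slide 1 it was 0.08 and within slide 2 it was 2.67.

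Cck followed the cortical neuron markers and ran against the interneuron markers. Across the 9 arrays Cck correlated with their median at r = 0.861 and rho = 0.95 (exact permutation, adjusted p = 0.0158 and 0.0247 over 70 pairs of a marker list and a member), and r was 0.955 without METH arrays 4 and 5. With the interneuron marker median it was r = -0.889 and rho = -0.817 (exact permutation, adjusted p = 0.0246 and 0.0628), and r was -0.905 without METH array 2 and saline array 2. The interneuron median lay between -0.60 and 0.20 on METH arrays and between -0.29 and 0.14 on saline arrays, relative to the saline mean, and summed intensities of its 11 probes were 5210 to 9257 on METH arrays and 5979 to 7528 on saline arrays. Neurod6, a transcription factor gene of cortical pyramidal neurons, had intensities of 228.9, 0.2, 309.2, 234.1 and 319.7 on METH arrays 1 to 5, against 41.0, 35.1, -4.0 and 140.7 on saline arrays 1 to 4. It was at background on METH array 2 and saline array 3, the arrays where Cck was lowest. Over the list, the median of 6 measured markers was 0.57, -0.29, 0.85, 1.48 and 1.44 on METH arrays 1 to 5, against -0.09, -0.02, -0.36 and 0.34 on saline arrays 1 to 4, relative to the saline mean. Summed intensities of the 9 markers with a probe were 7828 to 10718 on METH arrays and 6726 to 8124 on saline arrays, most of it from Lmo4 and Lamp5, which other brain cells share. Of the list, Slc17a7 and Neurod2 had log2 differences of 1.80 and 0.60 and the smallest p (limma adjusted p = 0.301 and 0.272). With that median as a covariate, an analysis added after the values were seen, the Cck difference was -0.74 (limma adjusted p = 0.820) and that of Crh 2.34 (limma adjusted p = 0.0035). The covariate itself was higher on METH arrays 1, 3, 4 and 5 than on any saline array. Cell mixture and drug therefore cannot be told apart by this fit. Whether the mixture of cells in the samples had a part in the Cck values was not tested.

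Penk and Tac1 ran against the same markers. Their correlations with the cortical median were r = -0.837 and -0.85 and rho = -0.917 and -0.904 (exact permutation, adjusted p = 0.0158 and 0.017 for r, 0.028 for either rho), and without METH arrays 4 and 5 r was -0.838 and -0.78. Group means were not subtracted for marker correlations, so differences between METH and saline arrays enter them. With the median as a covariate the differences were -0.14 for Penk and 0.33 for Tac1. Penk correlated with the shared projection neuron markers at r = 0.881 and rho = 0.833 (exact permutation, adjusted p = 0.0158 and 0.0579), with r = 0.806 without METH arrays 3 and 5. Penk and Pdyn passed by both measures with the striatopallidal median (r = 0.8657 and 0.8975) and the striatonigral median (r = 0.9002 and 0.8335). Adjusted p by exact permutation was 0.0158 to 0.0245 for r and 0.028 to 0.0451 for rho. Tac1 passed with the striatonigral median (r = 0.916, exact permutation, adjusted p = 0.0246 and 0.0455). With the striatopallidal median it did not (r = 0.704). Without METH arrays 3 and 5, r of these passing pairs was 0.659 to 0.822. Cartpt passed by r alone with the striatonigral (r = 0.935) and striatopallidal (0.763) medians (exact permutation, adjusted p = 0.0335 and 0.0417). Markers of other neurons gave such values too. With the septal, pallidal, hypothalamic and thalamic median, Tac1 and Cartpt passed by r (0.8135 and 0.7147, exact permutation, adjusted p = 0.0244 and 0.0371). Pdyn passed there by rho alone (0.85, exact permutation, adjusted p = 0.0472), and Penk did not (r = 0.733). Crh had r = 0.287 and rho = 0.45 with the cortical median (exact permutation, adjusted p = 0.713 and 0.413), with r = 0.487 without METH arrays 4 and 5.

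**Figure D4:**
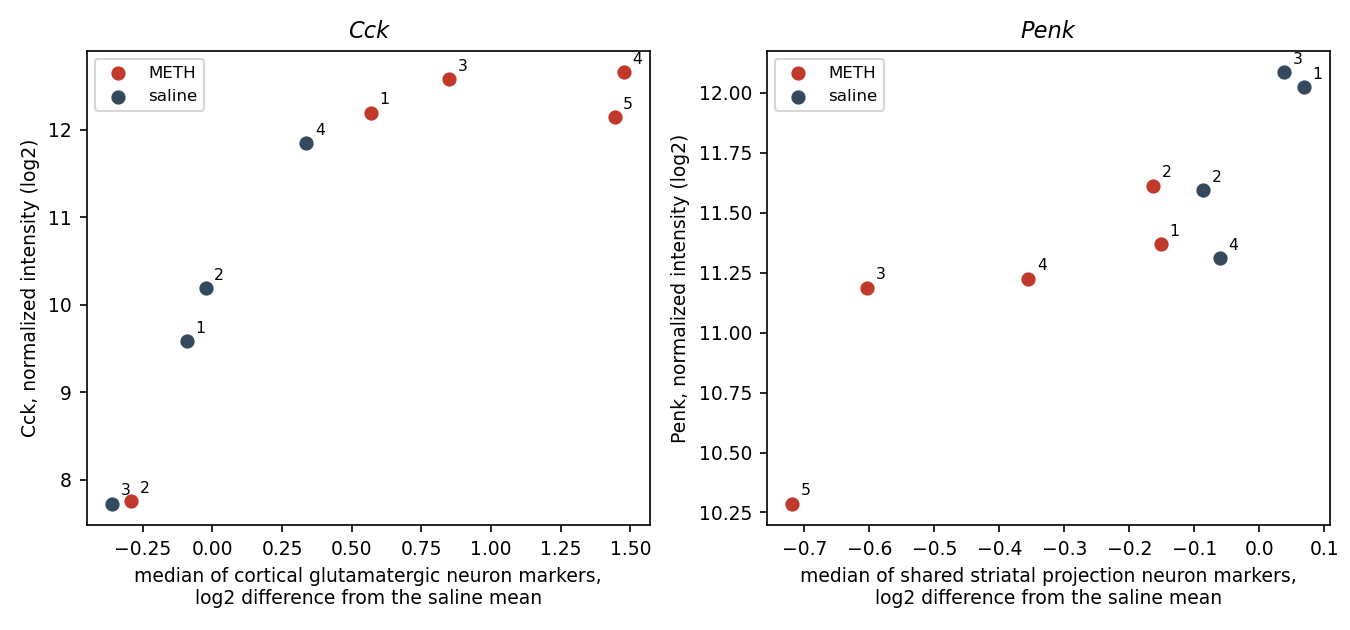
Normalized log2 intensity of Cck against the cortical marker median (left) and of Penk against the shared projection neuron marker median (right) on the 9 arrays, METH in red and saline in blue, with replicate numbers. Cck is lowest on METH array 2 and saline array 3, which also have the lowest cortical medians, and Penk is lowest on METH array 5.

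Trh and Avp showed no difference past the threshold. Trh, the thyrotropin-releasing hormone precursor, averaged 6.63 ± 0.37 in METH arrays and 6.79 ± 0.17 in saline arrays on the log2 scale (SD, n = 5 and 4), a difference of -0.16 (95% interval -0.56 to 0.25, limma adjusted p = 0.786). Without METH array 1 the difference was -0.03, and without METH array 4 it was -0.24. It was above background on all 9 arrays, and its lowest arrays were METH arrays 1 and 5. Avp, the vasopressin precursor, was dim, with intensities of 19.1, 31.2, 40.5, 24.2 and 9.9 on METH arrays 1 to 5, against 3.9, 15.1, 10.3 and 17.6 on saline arrays 1 to 4. It was above background on 3 METH arrays and 1 saline array, just enough for the filter, so its difference of 0.25 (95% interval -0.08 to 0.57, limma adjusted p = 0.576) has an uncertain size, and was 0.16 without METH array 3. Hypothalamic markers were mixed: Oxt, Hcrt, Sim1 and Nkx2-1 were above background on no array, while Pomc was on 5 METH and 3 saline arrays, Agrp on 3 METH and 4 saline arrays, and Pmch on 1 METH and 2 saline arrays.

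**Figure D5:**
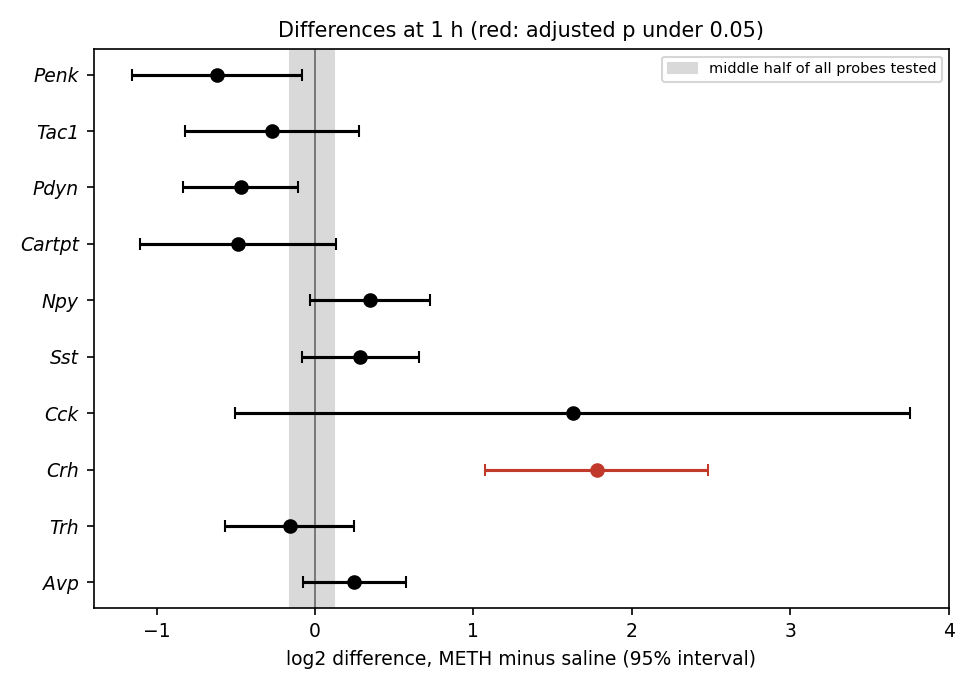
Log2 difference, METH minus saline, of the 10 neuropeptide genes with 95% intervals from limma; the grey band spans the lower to the upper quartile of all probes tested (-0.16 to 0.12). The interval of Crh lies wholly above 1, and that of Cck is the widest.

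Genes whose values ran most like each member were sought among 7327 named probes over the 9 arrays, as a description with no test. For Crh these were the early response gene Ccn1 (r = 0.968), the tubulin gene Tubb6 (0.936) and Fos (0.930), and after subtracting group means the 3 values were 0.877, 0.856 and 0.794. Other genes ran closer to Crh than these once group means were subtracted, up to r = 0.962. For Cck the 3 most alike over the 9 arrays were the kinesin gene Kif5c (r = 0.983), Neurod6 (0.980) and Mas1 (0.970). For Penk they were the retinoic acid binding protein gene Crabp1 (r = 0.986), Ankrd37 (0.983) and Sft2d1 (0.982), and Sft2d1 also ran with Pdyn (0.962). For Tac1 they were Trappc6b (r = 0.986), Ndufb11 (0.979) and Zcchc10 (0.976), for Pdyn Rcn1 (0.965) and Mapk12 (0.957) besides Sft2d1, and for Cartpt Exosc4 (0.988), Ppdpf (0.984) and Rpl29 (0.981). For Npy they were Mllt11 (r = 0.932), Rab4a (0.920) and Aldoa (0.915), for Sst Tfip11 (0.955), Tubb6 (0.897) and Styxl2 (0.885), and for Trh Snrnp40 (0.942), Ypel4 (0.901) and Kiss1r (0.884). With 9 arrays and this many probes, high values arise readily, and neither the members nor their neighbours are independent of the array's tissue content.

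Receptors and partners of the member peptides did not pass either. Of 25 genes written for this list 16 had a probe and 8 were tested, with 0 past the threshold, 5 log2 differences above 0 and a median of 0.48, against -0.021 for all genes. Limma gave 4 of the 8 an unadjusted p under 0.05, as it did 11.2% of all 7203 genes. The somatostatin receptors Sstr2 and Sstr1 had log2 differences of 1.48 ± 0.36 and 1.40 ± 0.32 SE (limma adjusted p = 0.132 and 0.111). Crhbp, the secreted protein that binds and buffers Crh, had 1.04 ± 0.31 SE (limma adjusted p = 0.225) and Cckbr, the brain receptor of Cck, 0.65 ± 0.23 SE (0.304). Crhbp had intensities of 343.3, 200.7, 541.1, 477.6 and 628.8 on METH arrays 1 to 5, against 206.5, 118.4, 130.0 and 187.1 on saline arrays 1 to 4, and its lowest METH array was again number 2. With the cortical median as a covariate the list median was 0.14. In unscaled values 4 of the 8 rose, where 224 of all 9987 probes rose and the median of all probes was 0.23. With array weights 3 rose (159 over all probes) and without METH array 2 it was 4 (186). The replicate block gave 2 (68) and leaving out saline array 4 gave 1 (41). The substance P receptor Tacr1 had a log2 difference of -0.44, the somatostatin receptor Sstr4 0.30, the Trh receptor Trhr -0.23 and the opioid receptor Oprm1 -0.13. The vasopressin receptors Avpr1a, Avpr1b and Avpr2 were above background on no array.

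Other peptide precursors and the enzymes that make or degrade peptides gave no call in the reported fit. Of 27 further precursors and granins tested none passed, 13 log2 differences were above 0 and the median was -0.036, while limma gave 9 of them an unadjusted p under 0.05, where the share over all genes was 11.2%. The somatostatin relative Cort had 1.27 ± 0.34 SE and the angiotensin precursor Agt -1.45 ± 0.42 SE (limma adjusted p = 0.182 and 0.206). Vip, another interneuron peptide, had 1.57 ± 0.58 SE (limma adjusted p = 0.335), with intensities of 168.7, 17.5, 229.9, 249.8 and 302.2 on METH arrays 1 to 5, against 34.8, 34.1, 3.4 and 76.8 on saline arrays 1 to 4, lowest on the same 2 arrays as Cck. Without METH array 2, 4 precursors rose and 1 fell, and 1 processing gene fell, where 186 of all 9987 probes rose and 64 fell. With array weights 1 precursor rose and 1 fell (159 and 92 over all probes), as within slide 2 (15 and 1). In unscaled values 1 rose (224 over all probes). The 9 tested genes of prohormone processing had a median log2 difference of 0.023 and the 13 peptidases one of 0.004, and none passed. Smallest in p were the convertase Pcsk4 (0.33) and the glutaminyl cyclase Qpct (-0.57), which closes the first residue of peptides such as Trh, and among peptidases the insulin-degrading enzyme Ide (0.38) and the aminopeptidase Npepps (-0.15). Of 13 tested genes of CREB signalling and its feedback, 3 rose and none fell, namely Sik1 (1.75), Crem (1.68) and Per1 (1.28). Crem encodes proteins that bind cAMP response elements.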

How the data were processed

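Total RNA of accumbens tissue was hybridised to Illumina rat beadchips. Per the submitters' processing notes, BeadStudio produced the deposited intensity values, with no version given. Since some values are below 0 and totals differ, background had been subtracted and arrays left unscaled. The deposited detection p-value states whether a probe exceeds the negative controls. Both deposited tables held the same intensities at 1 h (largest difference 0).

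The 9 arrays at 1 h were normalized by limma's neqc function (limma 3.58.1 under R 4.3.3): background correction from the detection p-value, an offset of 16, quantile normalization and log2. The 9987 probes that 4 or more arrays detected (p under 0.05) were fitted with lmFit and eBayes with an intensity trend, METH minus saline, two-sided, with Benjamini-Hochberg adjustment. The tests were checked on simulated data. The number of arrays limits the precision, the median 95% interval being ±0.34 on the log2 scale. Correlations across arrays used exact two-sided permutation over all pairings.

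Platform annotation names 1 gene for 13793 probes and none for 8730, and 13752 matched the RefSeq table, which changed 0 symbols. The brightest tested probe stood for a gene in lists. No genome build is named for the probes, so only promoter windows carry coordinates. Probe sequences and proteins were not used here.

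The text names every member, up to 4 called genes of each list or otherwise the 2 with the smallest p, receptors above background on at least 7 arrays, Fos, Arc and the 3 genes most like each member. Vip, Neurod6, Lmo4, Lamp5, Ppp1r1b, Rarb, Sfxn1, Chrm4, Pvalb, Gad1, Gad2, Oprm1, Pomc, Agrp, Pmch and genes named as undetected fall outside this rule and were picked after their values were seen. The members and lists were chosen with earlier results of these data known.

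Alternatives were other background, scaling, filter and trend choices, array weights, a block for the slide or for the replicate number, each slide alone, and leaving out each array. The cortical marker covariate was added after the data were seen.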

Additional observations from a re-analysis of the deposited data

Results flagged for a closer look

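In 2 of the 20 groups of a member's arrays, 1 array stood apart by Dixon's criterion, which chance meets in about 1 of 20 groups. Cartpt on METH array 5 was at 8.41 on the log2 scale, with the nearest METH array at 9.70. Cck on METH array 2 was at 7.75, with the nearest METH array at 12.15.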

How the results depend on the processing

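Penk, Pdyn, Cartpt, Sst and Avp kept their direction and stayed outside the threshold under every alternative run (20 each, 19 for Avp). Crh kept its direction in all 19. It did not pass within slide 2 (1.39, limma adjusted p = 0.424), and its difference ranged from 1.59 to 2.00 when single arrays were left out. Tac1 turned to 0.16 within slide 1 and to 0.33 with the cortical marker covariate, Cck to -0.74 with that covariate, and Trh to 0.065 in unscaled values, where the median of all probes was 0.23 rather than -0.023. Npy passed with the replicate block (0.50, limma adjusted p = 0.041), a fit that leaves out METH array 5. The cause of these changes was not tested.

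Over all probes, 52 passed. The count was 225 in unscaled values (224 rose), 251 with array weights (159 rose and 92 fell), 16 within slide 2 and 81 with the replicate block, and 31 to 250 when single arrays were left out, with 31 without saline array 2, 33 without saline array 3 and 250 without METH array 2. Of METH arrays 1 to 4, number 4 alone correlated best with the saline array of its own number, and same-numbered arrays had correlations of 0.072, 0.095, 0.080 and 0.247 between their deviations from group means, so the numbers were not taken as pairs. Crh and Avp could not be tested among probes detected on all 9 arrays. Dim probes such as Avp, and Crh with saline, lie near background, which limits their fold changes.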
